A study of Mus musculus with 6 samples.

Results

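Visceral endoderm is the absorptive epithelium that covers the blood vessels of the yolk sac. The genes described here encode its uptake receptors with their adapters (Cubn, Amn, Lrp2, Dab2, Folr1 and Pdzk1) and a set of secreted or otherwise characteristic products (Afp, Spink1, Clic6 and Lgals2). The 10 genes were taken by name from the 18193 genes measured, and all 10 had at least 1 probe set of their own, 22 probe sets in all. They were measured in untreated mouse cells of mixed background, taken fresh on embryonic day 9.5 and sorted as positive for CD31, an endothelial surface protein, and negative for CD41 and CD45, which mark blood cells. The descriptions of the samples carry the tag Wt and give no allele or transgene. There were 2 independent biological replicates for each of the 3 tissues, cells of the heart tube, caudal-half cells and cells of the yolk sac, and each of the 6 samples was hybridised to its own array. The sources used here do not give the number of embryos behind a sample.

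At this stage the rodent conceptus is fed largely through the yolk sac. The visceral endoderm takes up maternal protein, lipid, iron, folate and vitamin B12 by endocytosis at an apical brush border, digests much of it in lysosomes, and secretes plasma proteins of its own. Cubilin has no membrane-spanning segment and depends on amnionless to reach the surface, megalin (encoded by Lrp2) binds many of the same ligands, and the cytosolic adapter DAB2 links their tails to clathrin.

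Levels are given on the log2 scale of the authors' RMA values, read as the natural log of the deposited signal. That reading rests on the range of the values. On the other reading, in which the signals are linear, differences and standard errors (SE) grow 1.44 times while the p-values of limma stay as they are. As a measure of weak signal, 27 control probe sets for bacterial RNAs read 1.33 to 4.03, called the control range below. Over all probe sets, r was 0.981 to 0.986 between replicates and 0.947 to 0.969 between tissues, a description in which the arrays share their probe sets. Pecam1, the CD31 gene, had mean levels of 9.55 ± 0.08 (SD, n = 2) in heart tube, 9.95 ± 0.18 in caudal-half and 9.96 ± 0.19 in yolk sac cells. Ptprc, which encodes CD45, lay within the control range in each tissue. For Itga2b, the CD41 gene, the yolk sac exceeded the heart tube by 1.41 (limma adjusted p = 0.00687, or 0.053 without the first heart tube array) and caudal-half cells by 1.67 (0.00522). Itga2b had mean levels of 6.87 in heart tube, 6.61 in caudal-half and 8.28 in yolk sac cells. These lay above the control range, although the cells were sorted as negative for CD41. All 12 pan-endothelial genes of a list were above the control range in every tissue.

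All 10 genes were higher in the yolk sac than in either embryonic tissue. In limma's fit over all genes, 10 of 10 passed against the heart tube, where 6.67% of all genes were called higher, and 10 of 10 against caudal-half cells, where 4.86% were. Lower calls took 5.14% and 4.22% of all genes in these comparisons, and calls in either direction 11.8% and 9.08%. The median difference of the 10 genes was 3.73 against the heart tube (0.06 over all genes) and 3.03 against caudal-half cells (-0.01 over all genes). The 2 comparisons share the yolk sac arrays, and the genes were chosen with earlier results of these data known, so that the counts describe these genes and are not independent evidence. For each gene both yolk sac arrays read above all 4 embryonic arrays, which held for 16.2% of all genes. Between the heart tube and caudal-half cells, 1 of 10 passed, Lrp2, which was lower in the heart tube (2.65% of all genes were called lower, 2.86% higher and 5.51% in either direction).

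**Figure D1:**
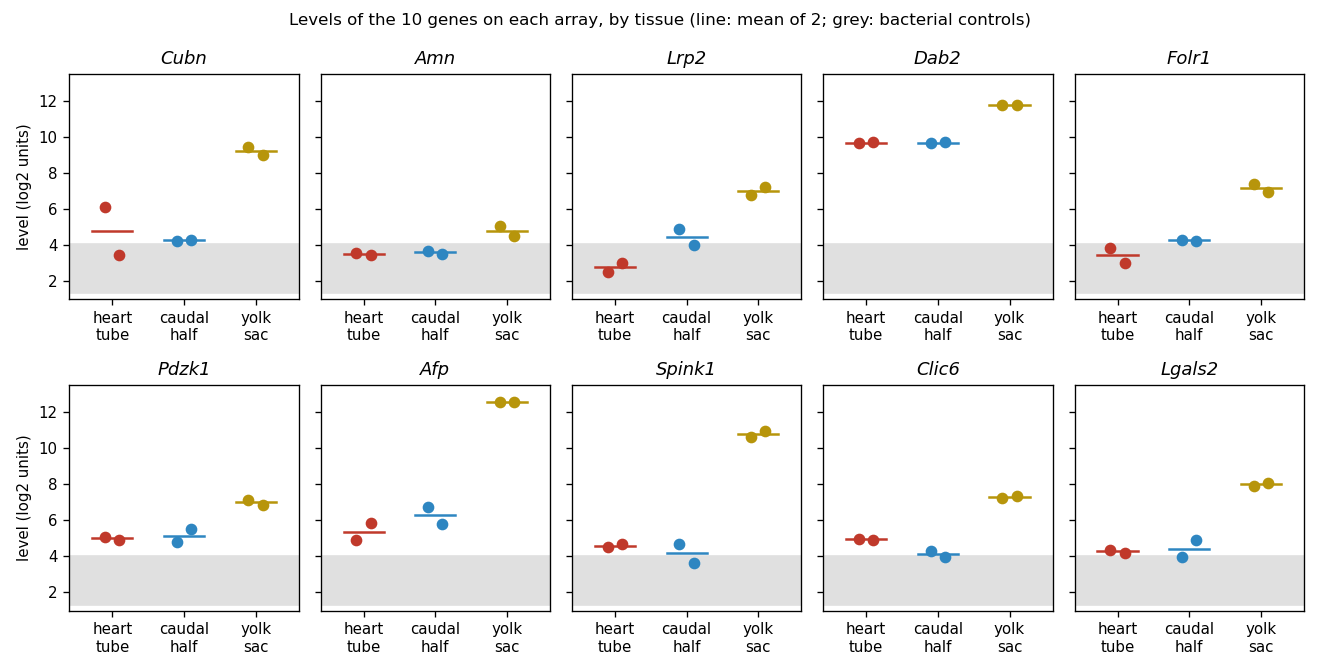
Level of each of the 10 genes on each array (log2 units), with 1 point an array, a line at the mean of the 2 replicates and the control range of 1.33 to 4.03 in grey. Both yolk sac points lie above the 4 embryonic points in every panel, by 0.80 for Amn at the least and 5.94 for Spink1 at the most.

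Cubn, which encodes cubilin, a receptor for the intrinsic factor and vitamin B12 complex, albumin and apolipoprotein A-I, read 9.41 and 8.99 on the yolk sac arrays, 4.25 and 4.26 on the caudal-half arrays, and 6.09 and 3.44 on the heart tube arrays. The yolk sac arrays stood apart from the rest, and the heart tube replicates differed from each other by more than those of any of the other 9 genes. Cubn was higher in the yolk sac by 4.43 ± 0.76 (SE) against the heart tube (limma adjusted p = 0.0141) and by 4.95 ± 0.76 against caudal-half cells (0.013). Each call was lost in part of the fits with an array left out: against the heart tube without the first or second yolk sac array (highest adjusted p 0.0725), and against caudal-half cells without either caudal array or the first yolk sac array (highest 0.0755). The other Cubn probe set read 9.78 and 9.57 on the yolk sac arrays, 4.34 and 3.90 in the heart tube and 3.95 and 4.47 on the caudal-half arrays. On it the heart tube replicates were close, and its differences of 5.56 ± 0.26 and 5.47 ± 0.26 passed at limma adjusted p of 0.000225 and 0.000435 over all named probe sets.

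Amn, the membrane-spanning partner that carries cubilin to the surface, read 5.05 and 4.49 on the yolk sac arrays, 3.56 and 3.43 on the heart tube arrays, and 3.69 and 3.51 on the caudal-half arrays. Only the yolk sac arrays rose above the control range. The differences were the smallest of the 10 genes, 1.27 ± 0.23 against the heart tube (limma adjusted p = 0.0169) and 1.17 ± 0.23 against caudal-half cells (0.0281). The first was lost without either heart tube array or the first yolk sac array (highest adjusted p 0.0957). The second was lost without either caudal array, either heart tube array or the first yolk sac array (highest 0.125). Amn has a single probe set here, so no second measurement of it was at hand.

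Lrp2 encodes megalin, a large receptor of the LDL receptor family that takes up retinol-binding protein, vitamin carriers and lipoproteins and is also made in neuroepithelium and kidney tubules. It read 6.78 and 7.24 on the yolk sac arrays, 4.86 and 4.02 on the caudal-half arrays, and 2.53 and 2.995 on the heart tube arrays. The 3 tissues did not overlap, with the yolk sac highest and caudal-half cells next. Both heart tube arrays and the second caudal-half array were within the control range, so the embryonic levels compared were weak. The yolk sac was higher by 4.25 ± 0.33 than the heart tube (limma adjusted p = 0.000828) and by 2.57 ± 0.33 than caudal-half cells (0.00742). The heart tube was lower than caudal-half cells by 1.68 on the log2 scale (-1.68 ± 0.33, limma adjusted p = 0.0407). That call was lost without either heart tube array, either yolk sac array or the first caudal array (highest adjusted p 0.205), and with the replicate number as a block (0.0823). A second Lrp2 probe set gave 3.19 and 2.45 for the yolk sac against the heart tube and caudal-half cells, both called. Between the embryonic tissues it gave -0.74, not called (0.104), with all embryonic arrays within the control range (2.86 to 3.76). The third read 2.14 to 2.75 on the 6 arrays, within the control range, and showed no called difference. With the mean of all 3 probe sets the differences of the yolk sac were 2.47 and 1.58, and that of the heart tube from caudal-half cells was -0.89, all called.

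Because cubilin and amnionless act as one complex, their upstream sequences are shown, from RefSeq on the GRCm38.p6 build. Each is the 250 bases before the annotated start, read 5′ to 3′ on the gene's strand. The Cubn window is chr2:13491877-13492126 on the minus strand and the Amn window chr12:111270846-111271095 on the plus strand.
Cubn: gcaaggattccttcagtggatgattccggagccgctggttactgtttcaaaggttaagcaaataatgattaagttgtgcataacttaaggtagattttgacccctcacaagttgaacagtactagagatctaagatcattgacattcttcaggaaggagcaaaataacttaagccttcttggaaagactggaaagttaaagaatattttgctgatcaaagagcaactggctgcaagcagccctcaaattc
Amn: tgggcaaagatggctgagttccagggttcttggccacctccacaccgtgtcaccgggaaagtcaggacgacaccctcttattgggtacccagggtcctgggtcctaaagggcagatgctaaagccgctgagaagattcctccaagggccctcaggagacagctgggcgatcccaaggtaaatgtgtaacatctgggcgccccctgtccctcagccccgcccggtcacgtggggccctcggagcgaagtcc
Both were searched on either strand for short forms of binding motifs of endoderm transcription factors: GTTAAT (the core of sites of HNF1 factors), CAAAGTCC (a core of HNF4 elements), TGTTTAC (FOXA factors) and AGATAA (the form that GATA factors bind). The forms were chosen with the sequences in view. Neither window holds any of these letters, so no base is in capitals, and nothing follows from that about the factors.

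Among the adapters and the remaining receptor, Dab2 had a different pattern of levels from the rest, being well above the control range in every tissue. DAB2 binds clathrin and the tails of megalin and related receptors, and is also made by endothelial cells and macrophages. It read 11.78 and 11.75 on the yolk sac arrays, 9.64 and 9.71 on the heart tube arrays, and 9.63 and 9.71 on the caudal-half arrays. Replicates lay close together, the embryonic tissues overlapped, and the yolk sac stood above both. It was higher in the yolk sac by 2.09 ± 0.16 against each embryonic tissue (limma adjusted p = 0.000661 for the heart tube and 0.00113 for caudal-half cells). The heart tube differed from caudal-half cells by 0.0022, with a 95% interval of -0.37 to 0.38. All 4 probe sets of Dab2 were called higher in the yolk sac in both comparisons, with differences of 2.01 to 2.52 and 2.09 to 2.98.

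Folr1 encodes folate receptor alpha, a lipid-anchored receptor that brings folate into epithelia by endocytosis. It read 7.37 and 6.96 on the yolk sac arrays, 4.30 and 4.25 on the caudal-half arrays, and 3.86 and 2.99 on the heart tube arrays. The tissues did not overlap, and both heart tube arrays were within the control range. It was higher in the yolk sac by 3.74 ± 0.31 against the heart tube (limma adjusted p = 0.000939) and by 2.90 ± 0.31 against caudal-half cells (0.00384). Between heart tube and caudal-half cells the difference of -0.85 had an interval of -1.59 to -0.10 and did not pass after adjustment (0.204).

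Pdzk1 encodes a scaffold with PDZ domains beneath the brush border, which also holds the lipoprotein receptor SR-BI in place. It read 7.12 and 6.87 on the yolk sac arrays, 5.08 and 4.93 on the heart tube arrays, and 4.77 and 5.53 on the caudal-half arrays. The embryonic tissues overlapped and the yolk sac lay above them. It was higher in the yolk sac by 1.99 ± 0.27 (limma adjusted p = 0.00633) and 1.84 ± 0.27 (0.0113). The second call was lost without the first yolk sac array (0.0611).

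Afp and Spink1, both genes of secreted proteins, had the largest differences of the 10. Afp encodes alpha-fetoprotein, the main plasma protein of the embryo, made by visceral endoderm and later by liver. It read 12.56 and 12.53 on the yolk sac arrays, 6.72 and 5.82 on the caudal-half arrays, and 4.90 and 5.85 on the heart tube arrays. On this probe set the embryonic tissues overlapped, far below the yolk sac. The difference was 7.17 ± 0.40 against the heart tube, which ranked 3 among genes by their excess in the yolk sac, and 6.28 ± 0.40 against caudal-half cells, where it ranked 6 (limma adjusted p = 0.000234 and 0.000659). Of its 5 probe sets, 4 were called higher in the yolk sac than in the heart tube and 3 than in caudal-half cells. One of the remaining probe sets read 2.57 to 3.14 on all arrays, within the control range. The second brightest gave larger yolk sac differences, 8.45 against the heart tube and 6.92 against caudal-half cells. On every Afp probe set but the brightest, both caudal-half arrays read above both heart tube arrays. None of these embryonic differences was called.

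Spink1 encodes a small secreted trypsin inhibitor. It read 10.62 and 10.96 on the yolk sac arrays, 4.51 and 4.68 on the heart tube arrays, and 4.68 and 3.64 on the caudal-half arrays. The gap between the lower yolk sac array and the highest embryonic array, 5.94, was the widest of the 10 genes. Its differences were 6.19 ± 0.34 against the heart tube (rank 11 by excess in the yolk sac) and 6.63 ± 0.34 against caudal-half cells (rank 4), with limma adjusted p of 0.000235 and 0.000399.

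Lgals2 encodes galectin-2, a sugar-binding lectin of absorptive epithelia. It read 7.90 and 8.08 on the yolk sac arrays, 4.35 and 4.19 on the heart tube arrays, and 3.96 and 4.89 on the caudal-half arrays. The yolk sac lay above overlapping embryonic values. The differences were 3.72 ± 0.31 and 3.57 ± 0.31 (limma adjusted p = 0.000952 and 0.00193), and a second probe set gave 4.66 and 4.68, both called.

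Clic6 encodes a member of the chloride intracellular channel family found in secretory epithelia. It read 7.22 and 7.37 on the yolk sac arrays, 4.98 and 4.94 on the heart tube arrays, and 4.31 and 3.97 on the caudal-half arrays. The tissues did not overlap, and here the heart tube was above caudal-half cells. The yolk sac was higher by 2.34 ± 0.19 and 3.16 ± 0.19 (limma adjusted p = 0.000842 and 0.000535). The heart tube differed from caudal-half cells by 0.82 ± 0.19, which missed the threshold (0.0607) but passed when dim genes were left out (0.0464). A second Clic6 probe set gave 1.91 and 1.92 for the yolk sac, both called, and 0.01 between the embryonic tissues.

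Upstream sequences are shown for Afp and Lgals2, whose windows hold letters of the motifs listed above, in capitals. The Afp window is chr5:90490464-90490713 on the plus strand and that of Lgals2 chr15:78855530-78855779 on the minus strand (GRCm38.p6, RefSeq).
Afp: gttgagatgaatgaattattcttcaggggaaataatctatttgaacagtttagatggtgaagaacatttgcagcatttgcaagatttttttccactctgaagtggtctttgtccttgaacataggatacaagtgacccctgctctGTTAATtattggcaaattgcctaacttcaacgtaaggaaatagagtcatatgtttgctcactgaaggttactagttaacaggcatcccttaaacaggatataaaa
Lgals2: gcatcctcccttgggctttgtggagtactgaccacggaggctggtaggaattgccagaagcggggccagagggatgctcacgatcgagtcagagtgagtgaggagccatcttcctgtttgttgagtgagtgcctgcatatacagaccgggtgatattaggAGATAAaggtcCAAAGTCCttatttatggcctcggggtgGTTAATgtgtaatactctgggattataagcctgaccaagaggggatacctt
The Afp window holds GTTAAT, 105 to 100 bases before the start. The Lgals2 window holds AGATAA at 90 to 85, CAAAGTCC at 79 to 72 and GTTAAT at 51 to 46 bases before the start, none overlapping another. Of all 32851 windows of 250 bases, 6.43% hold GTTAAT on either strand, 1.20% CAAAGTCC, 3.17% TGTTTAC and 9.99% AGATAA. Of the genes described here, 7 had a window in the table, 9 windows in all, and 3 of these held GTTAAT: those of Afp and Lgals2 and the window of a downstream Dab2 start. Folr1, Spink1 and Clic6 had no window and were not searched. A match of letters is a description and not a binding site.

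**Figure D2:**
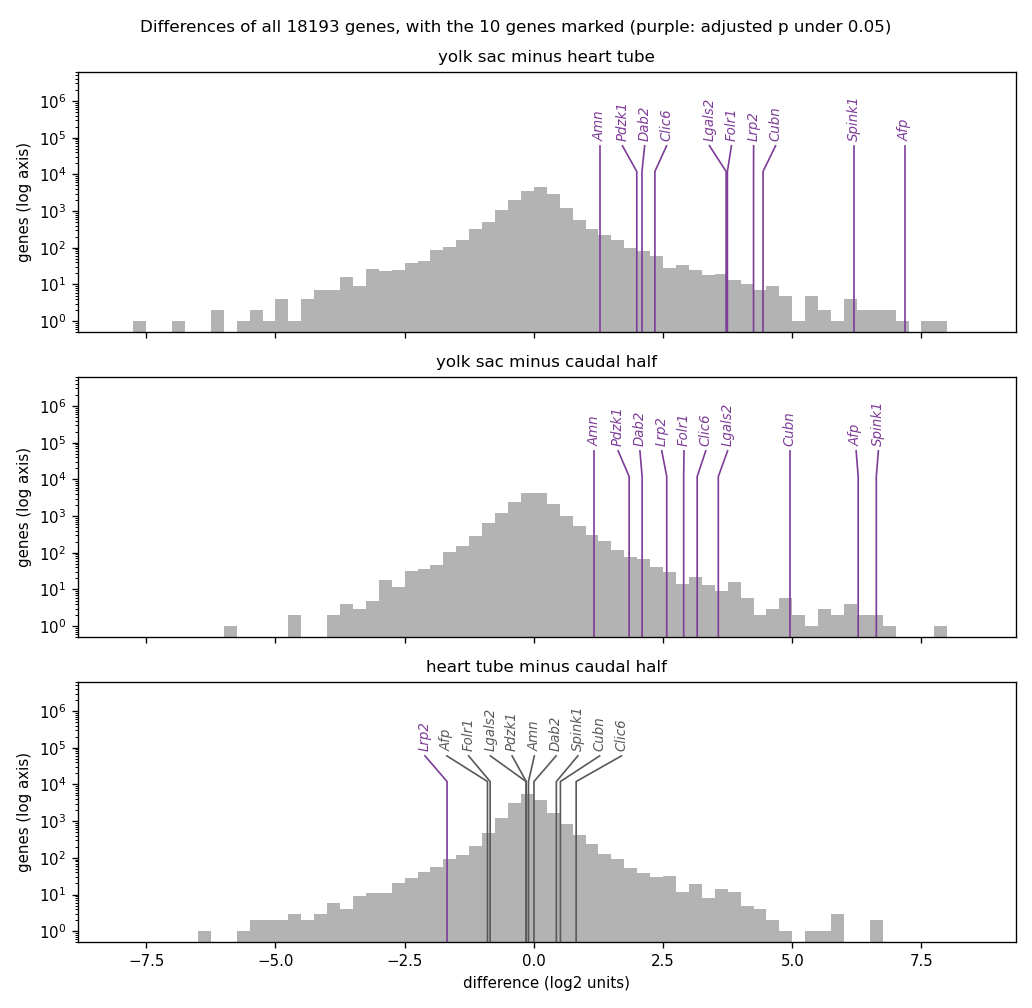
Histograms of the differences (log2 units) of all 18193 genes in the 3 comparisons, with the number of genes on a log axis and a vertical line for each of the 10 genes (purple where limma's adjusted p was under 0.05). In both comparisons with the yolk sac the 10 lines lie to the right of the bulk, from 1.27 to 7.17 and from 1.17 to 6.63, and between the embryonic tissues they lie from -1.68 to 0.82.

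The probe sets of a gene mostly gave the same direction. Of the 22 probe sets, 20 were called higher in the yolk sac than in the heart tube and 19 than in caudal-half cells, with none called lower (5.11% and 3.85% of all named probe sets were called higher, and 4.67% and 3.06% lower). The probe sets that were not called in both comparisons were the third of Lrp2 and the dimmest of Afp, which did not leave the control range on any array. Another of Afp was called against the heart tube (2.18) but not against caudal-half cells (1.31, limma adjusted p = 0.114). Between the embryonic tissues 0 of 22 were called at the probe set level, including the brightest of Lrp2 (0.0514), while 1.72% of all named probe sets were called lower in the heart tube and 2.43% higher. At the gene level in that comparison, 3 of the 10 genes had an unadjusted p under 0.05 in limma's fit, beside 19.5% of all genes.

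**Figure D3:**
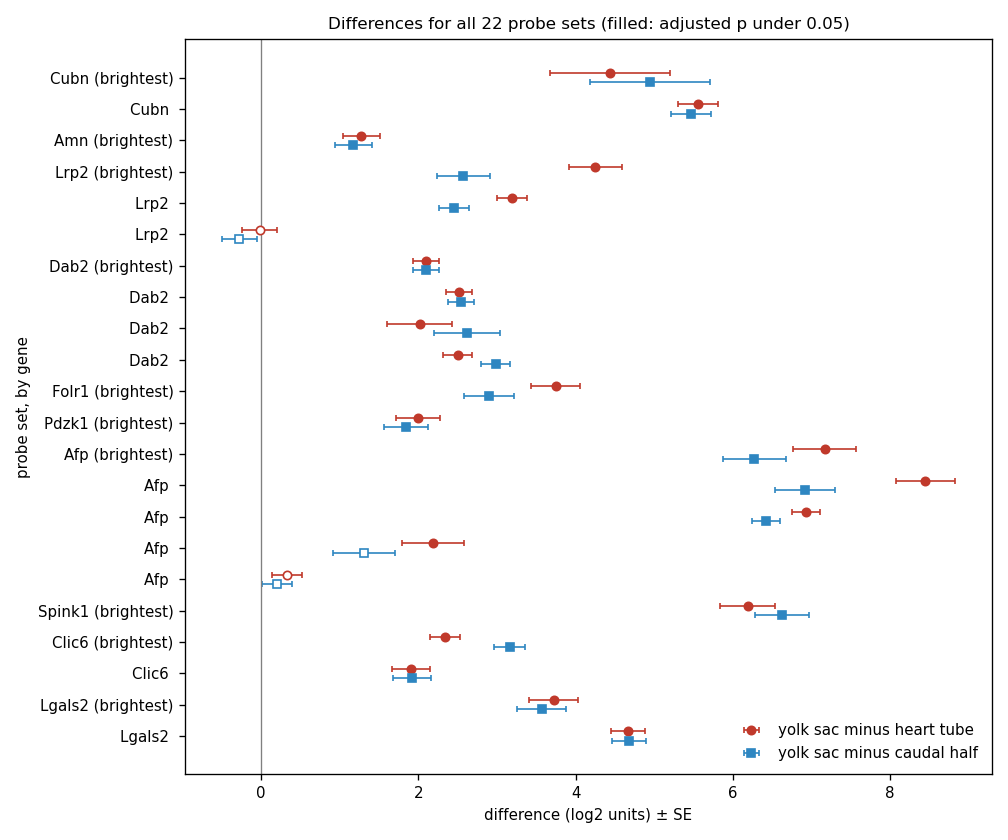
Difference ± SE (log2 units) for all 22 probe sets, listed by gene from the brightest to the dimmest, for the yolk sac against the heart tube (red circles) and caudal-half cells (blue squares), filled where limma's adjusted p was under 0.05. All points lie right of 0 except those of the third Lrp2 probe set, at -0.02 and -0.28.

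Part of a wider list of uptake genes was also higher in the yolk sac. The list held 25 measured genes, mainly of clathrin coats, adapters, endosomal traffic and brush border scaffolds. In the yolk sac 8 were higher and 0 lower than in the heart tube, and 9 and 0 than in caudal-half cells (6.67% and 4.86% of all genes were called higher). The medians of the list were 0.48 and 0.63. Ehd3, which encodes an endosomal recycling protein, was higher by 3.04 ± 0.19 and 3.89 ± 0.19, reading 8.27 and 8.17 in the yolk sac and 4.14 to 5.21 elsewhere. Slc9a3r1, which encodes the brush border scaffold NHERF1, was higher by 2.25 and 2.07, Ezr (ezrin, its link to actin) by 1.77 and 1.93, and Ap2s1 (the small subunit of the clathrin adapter AP-2) by 1.91 and 1.58. Without single arrays the list's counts fell to between 5 and 6 against the heart tube and between 3 and 5 against caudal-half cells. Ezr lost its call against the heart tube without the second heart tube array (0.0504) and Ap2s1 against caudal-half cells without the first caudal array (0.0503). Over all genes, 2.86% were called higher in the heart tube than in caudal-half cells and 2.65% lower. Between the embryonic tissues 2 genes of this list were higher in the heart tube (Eps15 by 0.99 and Clcn5 by 0.90) and 1 was lower (Ehd4, -1.10). Those counts fell to 0 without either heart tube array or either caudal array, and Clcn5 lost its call in all 6 fits without an array (highest adjusted p 0.192).

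Of 14 measured genes of folate and vitamin B12 handling, 1 was higher in the yolk sac in each comparison and 0 lower, with medians of -0.20 and -0.22. That count is near the 6.67% and 4.86% of all genes called higher. That gene was Tcn2, which encodes transcobalamin, the plasma carrier that delivers vitamin B12 to cells. Tcn2 read 11.91 and 11.82 on the yolk sac arrays, 9.68 and 8.90 on the heart tube arrays, and 8.70 and 8.47 on the caudal-half arrays. It was higher in the yolk sac by 2.58 ± 0.27 and 3.28 ± 0.27 (limma adjusted p = 0.00241 and 0.00166). The mean of Folr2, the gene of another folate receptor, was within the control range in caudal-half cells and differed by 0.0068 and 0.18 in the comparisons with the yolk sac, not called.

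The ligands and other receptors went both ways. Of 12 measured genes, 5 were higher and 1 lower in the yolk sac than in the heart tube, and 5 were higher and 2 lower than in caudal-half cells. Over all genes, 6.67% were called higher and 5.14% lower against the heart tube, and 4.86% and 4.22% against caudal-half cells. For the heart tube against caudal-half cells these shares were 2.86% and 2.65%. Those higher included the ligand genes Ttr (7.57 and 7.94), Rbp4 (7.91 and 6.36) and Apoa1 (6.70 and 6.06), which are also visceral endoderm markers. They also included Fcgrt, the neonatal Fc receptor gene, which carries immunoglobulin across epithelia (3.89 ± 0.23 and 4.25 ± 0.23). Scarb1, which encodes the partner of PDZK1 named above and was chosen after its values were seen, was higher by 1.76 and 1.22. Its second call was lost without either caudal array, either heart tube array or the first yolk sac array (highest adjusted p 0.113). Those lower were Vldlr, a lipoprotein receptor gene of endothelium and muscle (-1.05 and -2.63), and, against caudal-half cells, the transferrin receptor gene Tfrc (-1.66). Vldlr lost its call against the heart tube without either heart tube array (highest 0.0593), and Tfrc lost its call without the first yolk sac array (0.0502). Between the embryonic tissues 3 were lower in the heart tube, Vldlr (-1.58), Rbp4 (-1.54) and Tfrc (-1.13), of which Rbp4 lost its call in 5 and Tfrc in 6 of the 6 fits without an array.

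**Figure D4:**
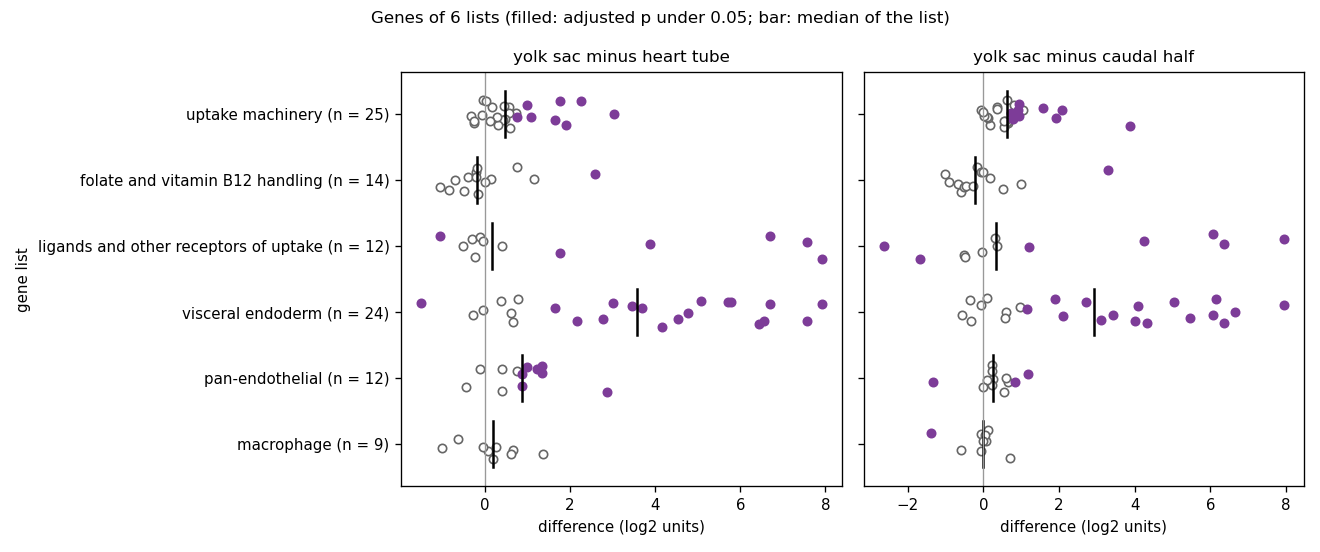
Differences (log2 units) of single genes of 6 lists for the yolk sac against the heart tube (left) and caudal-half cells (right), filled where limma's adjusted p was under 0.05, with a bar at each list's median. The median of the visceral endoderm genes is 3.58 and 2.91, that of the uptake machinery 0.48 and 0.63, and that of the pan-endothelial genes 0.87 and 0.25.

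Markers of other cell types were read beside these results. Over all genes, 6.67% were called higher and 5.14% lower in the yolk sac than in the heart tube, and 4.86% and 4.22% than in caudal-half cells. For the heart tube against caudal-half cells these shares were 2.86% and 2.65%. They apply to the counts of all cell type lists below. Of 24 visceral endoderm genes outside the 10, 17 were higher and 1 lower in the yolk sac than in the heart tube, and 16 were higher and 0 lower than in caudal-half cells. Their summed level (log2 of the sum over genes) was 14.30 to 14.38 in the yolk sac, 10.24 to 10.25 in the heart tube and 10.29 to 10.30 in caudal-half cells. In the yolk sac 4 of the 24 were within the control range, Foxa1, Foxa2, Foxa3 and Ihh, against 11 in the heart tube and 9 in caudal-half cells. All these cells had been sorted as positive for CD31. The part that visceral endoderm cells or their RNA have in the 10 differences was not tested, and in such bulk samples fewer cells of a type and less RNA per cell cannot be told apart.

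Dab2 is also made by endothelium and macrophages. Of 12 pan-endothelial genes, 7 were higher in the yolk sac than in the heart tube and 0 lower, and 2 were higher and 1 lower than in caudal-half cells, with summed levels of 14.06 to 14.07 in the yolk sac, 13.27 to 13.41 in the heart tube and 13.70 to 13.83 in caudal-half cells. Of 9 macrophage genes 0 were called against the heart tube and 1 was lower than in caudal-half cells, and Ptprc, Adgre1, Cd14, Tyrobp and Lyz2 were within the control range in each tissue. Their summed level was 8.83 to 9.01 in the yolk sac, below the heart tube (9.34 to 9.51) and caudal-half cells (9.64 to 10.35), and was carried by Laptm5 (8.32 in yolk sac, 8.96 in heart tube and 9.70 in caudal-half cells). The median level of the macrophage list went the other way against the heart tube, 3.53 to 3.75 in yolk sac and 3.03 to 3.23 in heart tube cells, with a median difference of 0.19. The part of endothelial cells and macrophages in the Dab2 difference was not tested. Among 7 erythroid genes, 3 were higher and 1 lower in the yolk sac than in the heart tube, and 4 were higher than in caudal-half cells. The erythroid summed level was 13.45 to 13.54 in yolk sac, 10.68 to 10.998 in heart tube and 11.24 to 11.65 in caudal-half cells, and its part in the 10 differences was not tested.

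Megalin is also made in neural tube and nephric tissue. Of 7 neural tube genes, 1 was higher and 2 were lower in the heart tube than in caudal-half cells. Sox2 was at 7.01 in caudal-half cells and 1.64 in the heart tube, a difference of -5.36 ± 0.33 (SE, limma adjusted p = 0.00071). The other neural tube genes did not share this pattern. Sox1, Pax3 and Olig2 had means within the control range in both tissues. Pax6 was at 4.33 in caudal-half cells and 4.24 in the heart tube, not called, and Nes was lower in the heart tube by only 0.84. The summed level of that list was 9.998 to 10.11 in caudal-half cells and 10.82 to 10.94 in the heart tube, where Ncam1 was higher by 3.53. Of 4 nephric genes, Pax8, Lhx1 and Wt1 were within the control range in caudal-half cells, and the summed level was 5.62 to 5.65 there and 5.16 to 5.41 in the heart tube. Among 6 gut endoderm genes, 3 had lower levels in heart tube cells, Epcam (-3.12), Cdh1 (-3.10) and Sox17 (-1.31), the first 2 of which are also in the visceral endoderm list. Those 2 did not separate the yolk sac from caudal-half cells. Epcam was at 7.14 and 7.50 there and Cdh1 at 6.44 and 5.83, neither called. Cdx2, Shh and Foxa2 were not called, and were at 4.90, 4.68 and 3.40 in caudal-half cells, the last within the control range. The summed level of the gut endoderm list was 8.65 to 8.80 in the heart tube and 10.04 to 10.38 in caudal-half cells. It was carried by Sox17 (8.46 in heart tube, 9.78 in caudal-half and 9.70 in yolk sac cells). As Sox17 was well above the control range in every tissue, the sum mainly follows this gene and is no measure of gut endoderm. The part of these cells in the Lrp2 difference was not tested.

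The genes most like the 10 in pattern were found by centring each gene on its own mean and taking the root mean square distance over the 6 arrays to the mean profile of the 10. The 5 nearest were Clec2d (0.18), Slco4c1 (0.20), Fgb (0.22), Dnase1l3 (0.26) and Fga (0.27). As this choice entails, each was higher in the yolk sac than in both other tissues. The differences were 3.46 to 4.16 against the heart tube and 3.15 to 4.09 against caudal-half cells. Fga and Fgb encode chains of fibrinogen and belong to the visceral endoderm list. Among the 10 genes themselves the distance to their mean ran from 0.32 for Lgals2 and 0.36 for Folr1 to 1.37 for Spink1 and 1.54 for Afp, whose differences were larger than the mean, while Amn (1.14) had smaller ones.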

How the data were processed

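Per the labels, RNA of 6 sorted cell samples was hybridised to 6 mouse arrays. Per the submitters' processing notes, the authors summarised probe sets by RMA (affy) and deposited 1 signal for each. The sources used here give no versions, filters or chip definition. Deposited signals spanned 2.46 to 2172540, more than a 16-bit scanner records, and their natural logs 0.899 to 14.6, as RMA log2 values usually do. That log was read as log2.

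The platform annotation gave 34945 probe sets (of 45101) exactly 1 symbol, controls left out. A gene was represented by its brightest probe set over 6 arrays, which left 18193 genes without any filter on low values. Tissue means were fitted over all 6 arrays with limma 3.58.1 (lmFit, eBayes; R 4.3.3; 3 residual and 3.48 prior degrees of freedom). Tests were two-sided, adjusted by Benjamini-Hochberg over all genes, and called at 0.05. The number of arrays limits the precision (median SE 0.210). The fit was tested on simulated data.

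The members and lists were chosen with earlier results of these data known. Named were all 10 members, up to 4 called genes per pathway list with the largest difference, the genes of the sort, the 5 most similar genes, and in cell type lists those a result turns on. Listed symbols were updated through RefSeq synonyms (Mut to Mmut, Gif to Cblif, Emr1 to Adgre1), and 9 listed genes without a probe set of their own were not analysed here. Settings were varied as given in the closing section.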

Additional observations from a re-analysis of the deposited data

How the results depend on the processing

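The 10 genes kept their direction in both comparisons with the yolk sac under every setting tried. Of 10 called, between 8 and 10 stayed called against the heart tube and between 7 and 10 against caudal-half cells without single arrays. In these fits the lone array of a tissue is assumed to vary like the others. Without dim genes (mean not above 4.03) Amn was not tested and the other 9 were called in both. Calls between heart tube and caudal-half cells were less stable. The count of 1 became 0 with every probe set as a feature, with a second quantile normalization, with only the 4 arrays compared and with the replicate block, and 2 without dim genes, which tests fewer genes. It was 0 to 1 without single arrays, and the 1 without the second heart tube array was Cubn (1.84, limma adjusted p = 0.0345).

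Over all genes, 2150, 1652 and 1002 were called (yolk sac against heart tube, yolk sac against caudal-half cells, heart tube against caudal-half cells), and 936 to 1794, 638 to 1155 and 376 to 899 without single arrays. With every probe set as a feature the first was 3416. In the paired fit, with the replicate number as a block, 1876, 1356 and 776 were called, and no call of the 10 genes but that of Lrp2 between the embryonic tissues was lost. The deviations of same-numbered arrays were nearly uncorrelated between tissues (r of 0.05, -0.01 and 0.02). The labels do not say whether same-numbered samples were collected together. These correlations cannot decide it, since they rest only on the difference between the replicates of each tissue.

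Uncalled differences of heart tube minus caudal-half cells changed sign without single arrays: Dab2 ranged from -0.036 to 0.041 (-0.029 in another of these fits), Pdzk1 from -0.525 to 0.23, Spink1 from -0.084 to 0.954, Lgals2 from -0.616 to 0.315 and Cubn from -0.81 to 1.84. Of 447 member differences under alternatives, 415 kept direction and side of the threshold, 24 lost their call and 2 gained one. For the uptake machinery, limma with trend and robust variances called 13 and 15 of 25 in the comparisons with the yolk sac, while genes called higher over the whole array went from 1214 to 1439 and from 885 to 1159. Causes were not tested.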
